A study of Homo sapiens with 4 samples.

Results

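The p53 target genes described here are 31 genes listed as targets of p53. Of these, 29 had a probe set of their own among the 19775 gene symbols read by the arrays. The list was made with earlier results of these data known. Each gene was represented by the probe set with its single symbol that had the highest mean signal. BTG2 and FDXR, the other 2 listed genes, had no such probe set in the annotation used and were not analysed here. RNA came from Jurkat cells, an established human T-cell acute lymphoblastic leukemia line, and was taken 24 h after the cells had received siRNA at 100 nM. The siLEF1 group (2 arrays) was given a pool of siRNAs against LEF1, a transcription factor of the Wnt pathway, and the siNT group (2 arrays) a pool of non-targeting siRNAs. Both groups were transfected with the same reagent, both carry the p53 mutation that the study describes in these cells, and the labels call the replicates biological. The work was done in 1 cell line.

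The transcription factor p53 is stabilized by DNA damage and other stress, when its inhibitor MDM2 no longer removes it. It then switches on genes that halt the cell cycle, repair DNA, adjust metabolism or start apoptosis. Many of these genes also have regulators other than p53, among them stress-activated and mitogen-activated factors, so they can be transcribed in p53-mutant cells. The comparison asked how the signals of these genes differed between siLEF1 and siNT cells.

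Values are signals normalized by RMA (robust multichip average) on the log2 scale, where a difference of 1 is 2-fold, and a level is compared only between arrays of the same probe set. The brightest LEF1 probe set read 11.24 and 11.56 with siLEF1 against 12.30 and 11.92 with siNT. Its difference of -0.71 (limma adjusted p = 0.191) did not pass. A dimmer LEF1 probe set read 6.88 and 7.24 with siLEF1 against 8.20 and 7.78 with siNT. Its difference of -0.93 did not pass either (limma adjusted p = 0.141). In the dimmest the groups overlapped, with a difference of -0.19 (limma adjusted p = 0.673). Lower LEF1 mRNA by PCR and lower LEF1 protein in siLEF1 than in siNT cells are reported by the study. The medians of the 4 arrays lay between 4.84 and 4.85, and their number limits the precision of every value. Signals of T-lineage markers lay between 4.75, in CD2, and 12.74, in CD3D. The 6 B-lineage markers lay between 3.69 and 7.32 and 6 myeloid markers between 2.90 and 5.58. For 7 epithelial and stromal markers the range was 2.38 to 8.56. These ranges overlap, and they are given without a comparison of levels between probe sets. The 13 T-lineage markers measured had a median log2 fold change of 0.39, 6 were higher at an unadjusted p under 0.05 (46.2%, against 7.0% of all genes), and none passed after adjustment. BCL11B was at 1.11 and CD3G at 0.83, and the part of these differences in the values below was not tested. Over 16 housekeeping genes the median log2 fold change was 0.10. Signal at the 5' end of ACTB minus that at its 3' end is a sign of RNA integrity. It was -1.08 and -1.55 with siLEF1 against -1.80 and -1.95 with siNT. The same difference for GAPDH was -0.34 and -0.32 with siLEF1 against -0.39 and -0.65 with siNT, lowest in siNT replicate 2. The part of these differences in RNA integrity in the values below was not tested.

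None of the 29 p53 targets passed in siLEF1 against siNT cells at an adjusted p under 0.05 (0 lower and 0 higher, limma with Benjamini-Hochberg adjustment over 54613 probe sets), where 0.183% of all probe sets passed as lower and 0.0238% as higher. The smallest adjusted p was 0.071, that of GDF15. At an unadjusted p under 0.05, 8 members were lower (27.6%, against 11.5% of all genes) and 1 was higher (3.45%, against 7.0%). Both siLEF1 arrays lay under both siNT arrays in 13 members (44.8%, against 26.4% of all genes) and over them in 8 (27.6%, against 28.1%), while 8 overlapped. The difference was over 2-fold lower in 4 members, GADD45B, GADD45A, BTG1 and GDF15 (13.8%, against 2.9% of all genes). Of the 29 log2 fold changes, 19 were below 0 (65.5%, against 46.5% of all genes). Their median was -0.10 and their mean -0.29, beside a median of 0.02 over all genes. The shares of all genes include dim genes, whereas 26 of the 29 members had a mean log2 signal of 6 or more. In a fit of the 19383 probe sets with such a signal, 5284 had an unadjusted p under 0.05 (limma) in either direction. Over all 54613 probe sets the number was 8538. These counts are descriptions, and no test of the list was made. In 19 of the 29 members the 95% interval of the log2 fold change lay within a 2-fold change in either direction. These include PLK2 and SPATA18, whose signals lay under the median of every array, where a change can be missed. They also include TNFRSF10B and CMBL, where dimmer probe sets had intervals of -2.05 to -0.26 and -2.02 to -0.75. Since the arrays read bulk RNA, fewer cells that express a gene and less of its RNA per cell cannot be told apart.

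**Figure D1:**
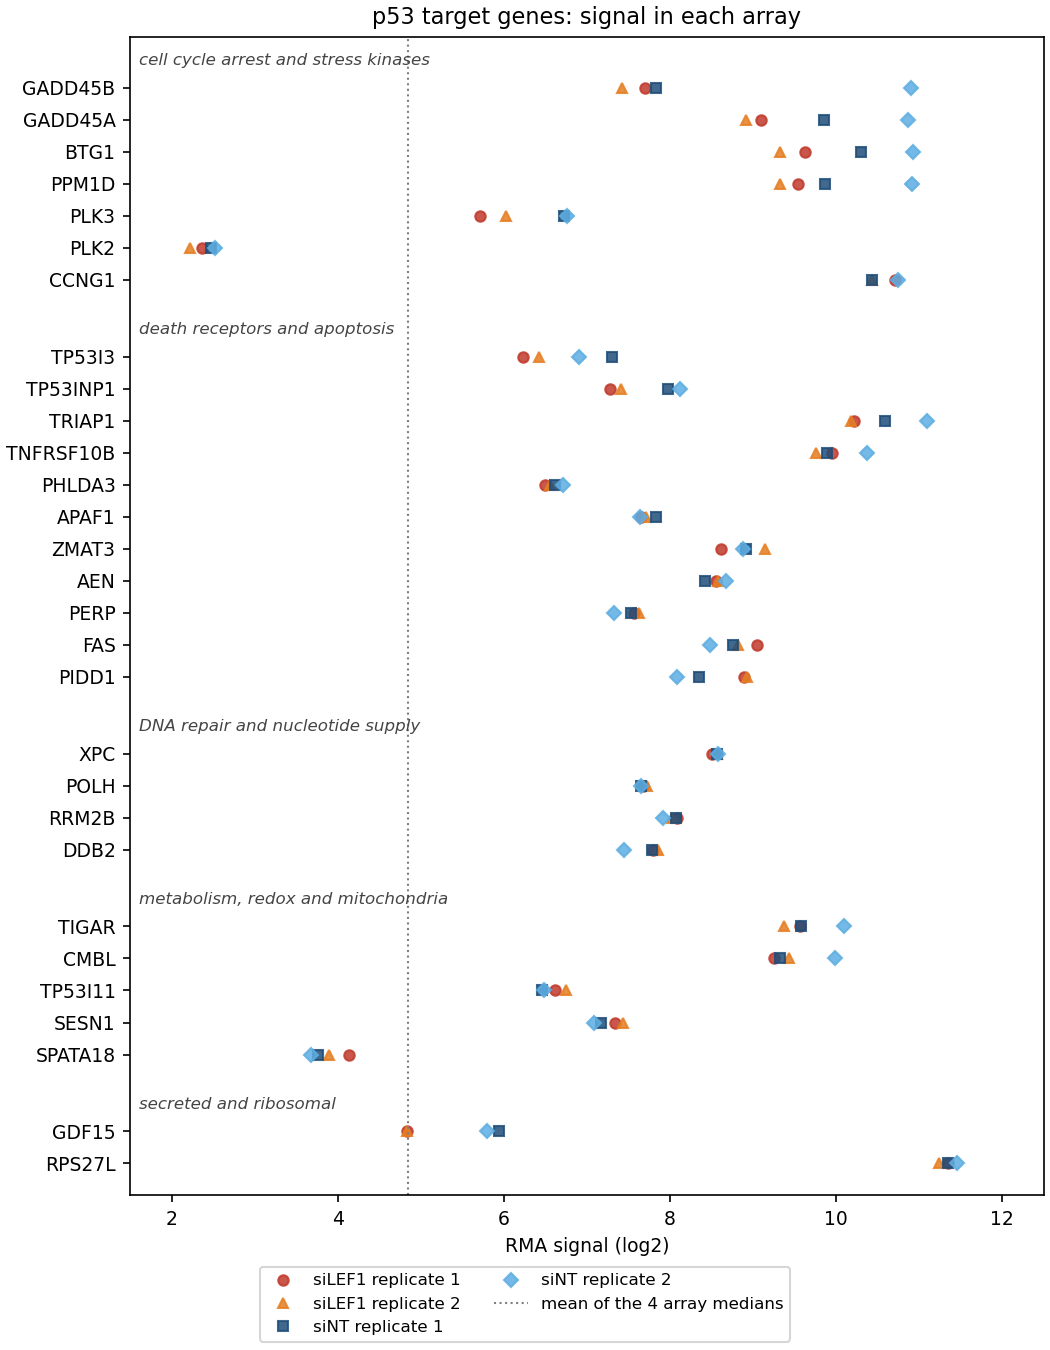
Log2 RMA signal (horizontal axis) for the 29 p53 target genes in each of the 4 arrays, ordered by role and, within a role, by log2 fold change, with circles and triangles for the siLEF1 replicates and squares and diamonds for the siNT replicates. In GADD45B only siNT replicate 2, at 10.90, stands apart from the other arrays, while in PLK3 and GDF15 the siNT replicates lie together above both siLEF1 arrays.

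Grouped by role, the 7 measured genes of cell cycle arrest and stress kinases had the lowest median log2 fold change, -0.96, and all 7 values were below 0. At an unadjusted p under 0.05, 4 of the 7 were lower (57.1%, against 11.5% of all genes), and in 6 both siLEF1 arrays lay under both siNT arrays (85.7%, against 26.4%). The 6 include PLK2, whose signals lay under the lower quartile of every array, and the 7 include CCNG1 at -0.02. GADD45A, a small stress protein that binds cell cycle and repair proteins, read 9.10 and 8.91 with siLEF1 against 9.86 and 10.87 with siNT. Both siLEF1 arrays were below both siNT arrays, and the siNT replicates differed by 1.01. Its log2 fold change was -1.36 ± 0.32 (SE, 95% interval -2.14 to -0.58, limma adjusted p = 0.146), a 2.57-fold lower signal that did not pass. Without siNT replicate 1 the log2 fold change was -1.86, and without siNT replicate 2 it was -0.86, each against a lone control array.

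GADD45B, a paralog of GADD45A that responds to cytokines and stress, read 7.70 and 7.42 with siLEF1 against 7.83 and 10.90 with siNT. siNT replicate 1 lay 0.27 above the siLEF1 mean, and siNT replicate 2 lay 3.34 above it. The log2 fold change of -1.80 therefore had a wide 95% interval, -3.94 to 0.33 (limma adjusted p = 0.392). Without siNT replicate 1 it was -3.34, and without siNT replicate 2 it was -0.27, each against a lone control array. In the other 3 probe sets of GADD45B siNT replicate 2 also stood apart, at 10.28, 9.30 and 7.13, each far above the other arrays of its probe set. siNT replicate 1 was 0.29 and 0.18 above the siLEF1 mean in the first and second of these and level with it in the dimmest.

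BTG1, an antiproliferative cofactor of mRNA deadenylation, read 9.62 and 9.32 with siLEF1 against 10.30 and 10.92 with siNT. The groups did not overlap, and the log2 fold change was -1.14 ± 0.24 (SE, limma adjusted p = 0.123). Its next probe set gave -0.89, and its dimmest, with signals of 2.48 to 2.65, gave 0.04. PPM1D, a phosphatase that switches off the damage response, read 9.54 and 9.33 with siLEF1 against 9.87 and 10.91 with siNT. Its log2 fold change of -0.96 (limma adjusted p = 0.255) was -0.44 without siNT replicate 2. Without siNT replicate 1, BTG1 and PPM1D had log2 fold changes of -1.45 and -1.48, against a lone control array.

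PLK3, a polo-like kinase of the stress response, differed between the groups with little spread in the controls. It read 5.71 and 6.03 with siLEF1 against 6.72 and 6.76 with siNT. Both siNT arrays stood above both siLEF1 arrays, and the siNT replicates were 0.04 apart. The log2 fold change was -0.87 ± 0.17 (SE, 95% interval -1.28 to -0.46, limma adjusted p = 0.109) and ran from -1.03 to -0.71 when each array was left out. The other 2 probe sets of PLK3, which were dimmer, gave 0.21 and 0.19. Its paralog PLK2 had signals of 2.22 to 2.52, under the lower quartile of every array, where a change can be missed. CCNG1, a cyclin without a clear kinase partner, overlapped at 10.43 to 10.75, with a log2 fold change of -0.02 (95% interval -0.48 to 0.43).

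**Figure D2:**
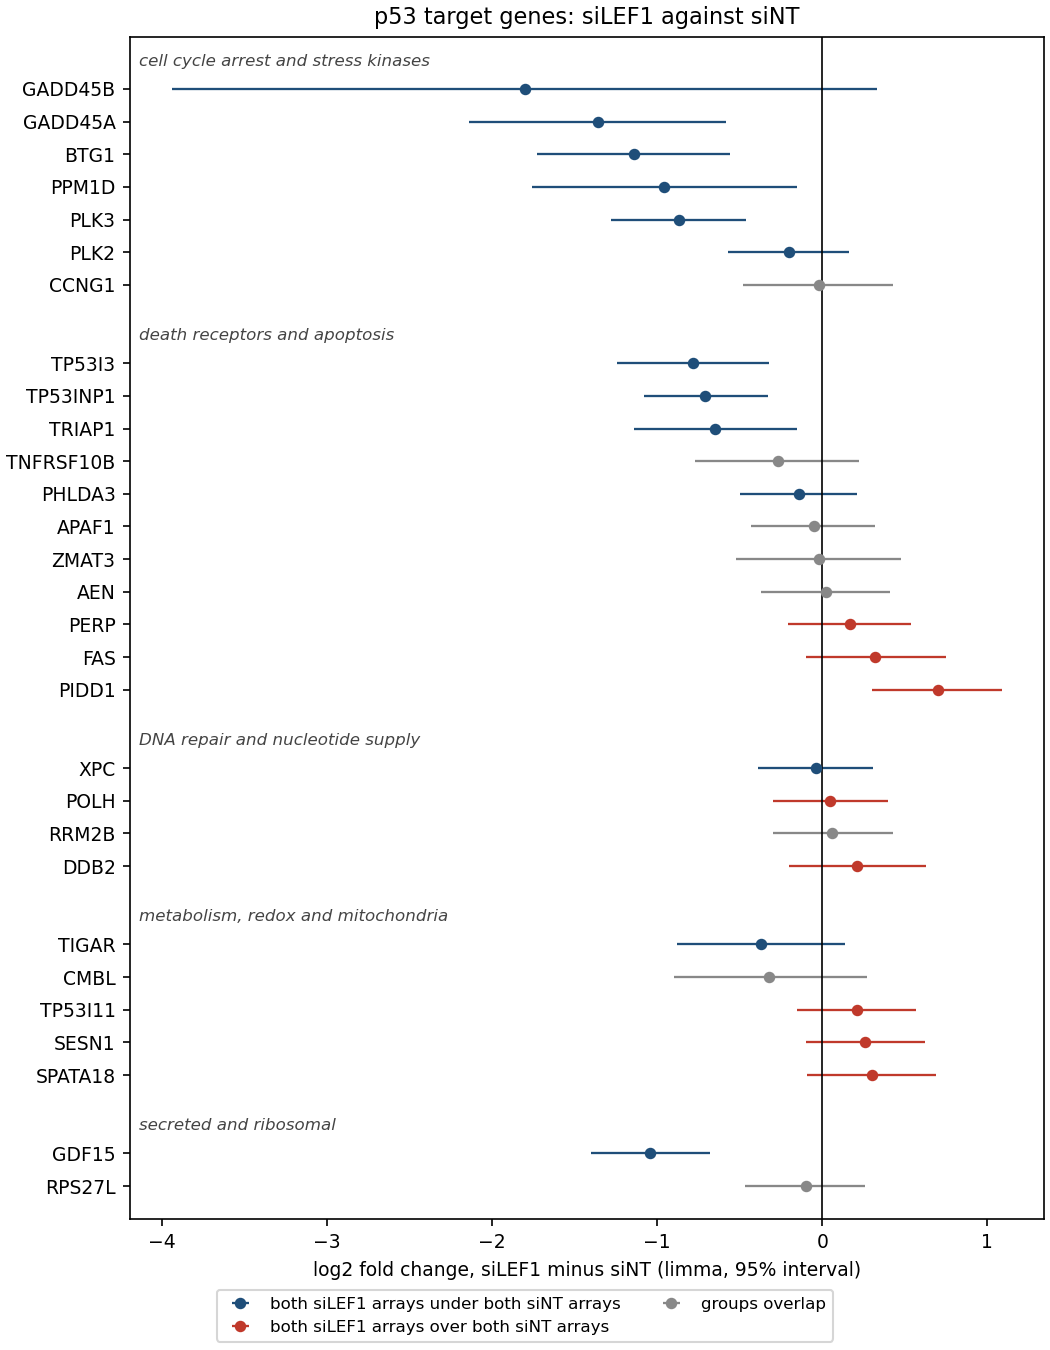
Log2 fold change of siLEF1 minus siNT (horizontal axis) of the 29 p53 target genes with 95% intervals from limma, coloured by whether the 2 groups of arrays overlap. The 7 genes of cell cycle arrest and stress kinases lie between -1.80 and -0.02, and the 4 genes of DNA repair and nucleotide supply between -0.04 and 0.21.

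Among 11 members of death receptor and apoptosis pathways the signs were mixed, with 7 values below 0, 4 above and a median log2 fold change of -0.05. TP53I3, a quinone oxidoreductase-like enzyme linked to oxidative stress, read 6.23 and 6.42 with siLEF1 against 7.30 and 6.91 with siNT. Here siNT replicate 1 was the higher control, and the groups did not overlap. Its log2 fold change was -0.78 ± 0.19 (SE, limma adjusted p = 0.155). TP53INP1, a nuclear stress protein that also acts in autophagy, read 7.28 and 7.41 with siLEF1 against 7.98 and 8.12 with siNT. The replicates of each group were within 0.14, and the log2 fold change of -0.71 ± 0.15 (SE, limma adjusted p = 0.129) ran from -0.78 to -0.64 when each array was left out. The other 2 probe sets of TP53INP1, between 3.17 and 4.93, gave 0.07 and 0.08. TRIAP1, a small mitochondrial protein that restrains apoptosis, read 10.22 and 10.18 with siLEF1 against 10.59 and 11.10 with siNT, a log2 fold change of -0.65 (limma adjusted p = 0.22).

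PIDD1, the scaffold of the complex that activates caspase 2, was the member with the largest value above 0. It read 8.89 and 8.93 with siLEF1 against 8.35 and 8.08 with siNT, with no overlap. Its log2 fold change was 0.70 ± 0.16 (SE, 95% interval 0.30 to 1.09, limma adjusted p = 0.145), and its second probe set gave 0.59. FAS, the death receptor for FAS ligand on T cells, read 9.05 and 8.82 with siLEF1 against 8.76 and 8.48 with siNT. The siLEF1 arrays were slightly above the siNT arrays, with a log2 fold change of 0.32 (limma adjusted p = 0.445). All 5 FAS probe sets had values above 0, up to 0.90 in the dimmest, where the siLEF1 signals of 5.00 and 4.64 compared with 3.83 and 4.02, and none passed.

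TNFRSF10B, a receptor for the death ligand TRAIL, differed between its own probe sets. The brightest overlapped, at 9.95 and 9.76 with siLEF1 against 9.89 and 10.37 with siNT, with a log2 fold change of -0.27 (limma adjusted p = 0.58). A pair of dimmer probe sets gave -1.0 and -1.16, the latter from 6.30 and 6.35 with siLEF1 against 6.87 and 8.09 with siNT (limma adjusted p = 0.232 and 0.225). The dimmest, between 2.87 and 3.19, gave 0.22. PERP, a membrane protein of cell junctions and apoptosis, had 5 probe sets with values from 0.08 to 0.47. The remaining members were close to 0 in their brightest probe sets: PHLDA3, which restrains Akt, at -0.14, APAF1, the core of the apoptosome, at -0.05, ZMAT3, an RNA-binding zinc finger protein, at -0.02, and AEN, a nuclease of apoptosis, at 0.02.

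The 4 members of DNA repair and nucleotide supply showed a median difference of 0.06, and each of their 95% intervals lay within a 2-fold change. XPC, which recognizes damage in nucleotide excision repair, read 8.51 and 8.57 with siLEF1 against 8.57 and 8.58 with siNT. All 4 XPC signals fell within less than 0.1, and the interval of its log2 fold change was -0.39 to 0.31. DDB2, which finds ultraviolet damage, had a log2 fold change of 0.21 (95% interval -0.20 to 0.63). POLH, a translesion polymerase, had 0.05 in its brightest probe set and from -0.42 to 0.37 over all 6. RRM2B, a ribonucleotide reductase subunit, had 0.06 (95% interval -0.30 to 0.43).

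The 5 measured members of metabolism, redox and mitochondrial control had a median difference of 0.21. In their brightest probe sets none had an unadjusted p under 0.05 (limma), against 11.5% of all genes lower and 7.0% higher. TIGAR, a phosphatase that lowers glycolysis, read 9.56 and 9.37 with siLEF1 against 9.58 and 10.09 with siNT, a log2 fold change of -0.37 that was -0.12 without siNT replicate 2. SESN1, which restrains mTORC1, had a log2 fold change of 0.26 (95% interval -0.10 to 0.62) and TP53I11, a membrane protein, 0.21. SPATA18, a protein of mitochondrial quality control, lay under the median of every array at 3.68 to 4.14 and had 0.30. CMBL, a hydrolase, overlapped in its brightest probe set at -0.32 (limma adjusted p = 0.588). Its second probe set read 5.32 and 5.22 with siLEF1 against 7.04 and 6.27 with siNT. That log2 fold change of -1.38 did not pass (limma unadjusted p = 0.00162, adjusted p = 0.105), and the dimmest probe set gave 0.00.

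GDF15, a secreted stress cytokine of the TGF-beta family, had the smallest p of the members. Its brightest probe set read 4.83 and 4.83 with siLEF1 against 5.94 and 5.80 with siNT. The replicates of both groups were within 0.14, and the siLEF1 signals lay just under the medians of their arrays. The log2 fold change was -1.04 ± 0.15 (SE, 95% interval -1.40 to -0.68, limma adjusted p = 0.071), a 2.05-fold lower signal, and ran from -1.11 to -0.97 when each array was left out. With the arrays centred on the median of housekeeping genes it passed at -1.11 (limma adjusted p = 0.0433). The other 2 probe sets of GDF15, at 2.96 to 3.72, gave 0.10 and 0.11, so the difference rests on 1 probe set. RPS27L, a ribosomal protein paralog, read 11.35 and 11.24 with siLEF1 against 11.35 and 11.45 with siNT, a log2 fold change of -0.10 (95% interval -0.47 to 0.26).

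The siNT arrays did not weigh equally on these values. Their replicates differed by over 1 on the log2 scale in 3 members, GADD45B, PPM1D and GADD45A (10.3%, against 1.6% of all genes), and siNT replicate 2 was the higher in each. In all 7 genes of cell cycle arrest and stress kinases siNT replicate 2 was above replicate 1, with a median difference of 0.62, while over all 29 members this held in 17 (58.6%, against 48.8% of all genes) with a median of 0.04. Against siNT replicate 1 the median difference of the members was -0.04, and against replicate 2 it was -0.18. A fit without 1 siNT array has a lone control, assumed to vary like the siLEF1 group, so its p holds no spread between controls. All 13 T-lineage markers measured were lower in siNT replicate 2 than in replicate 1, by a median of 0.55. Of 6 myeloid markers, 4 were higher in siNT replicate 2 than in replicate 1, by 0.05 in MPO to 1.55 in CD14 (5.58 against 4.04), while LYZ (3.38 against 4.59) and ITGAM (4.65 against 5.25) were lower. Their part in the values of GADD45A, GADD45B, BTG1 and PPM1D was not tested. In GDF15, PLK3, TP53INP1 and TP53I3 the difference from siNT replicate 1 alone was -1.11, -0.85, -0.64 and -0.98, and that from siNT replicate 2 alone was -0.97, -0.89, -0.78 and -0.58. Without siNT replicate 2 the log2 fold changes of TRIAP1, FAS, TNFRSF10B and DDB2 were -0.39, 0.18, -0.03 and 0.05.

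**Figure D3:**
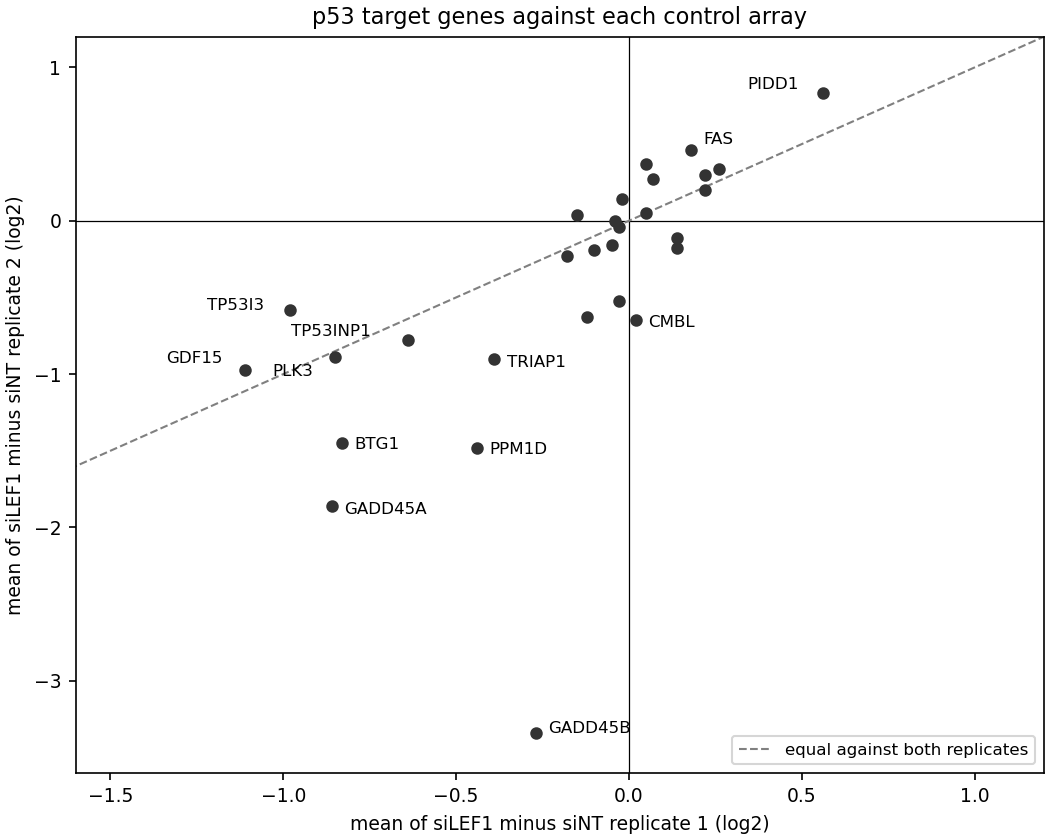
Mean signal of the siLEF1 arrays minus siNT replicate 1 (horizontal axis) and minus siNT replicate 2 (vertical axis) on the log2 scale for the 29 p53 target genes, 1 point per gene, with a dashed line where both are equal. GADD45B lies at -0.27 and -3.34, far below the line, whereas GDF15 (-1.11 and -0.97) and PLK3 (-0.85 and -0.89) lie close to it.

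Several probe sets were available for 18 of the 29 members, and 72 in all. No probe set passed at an adjusted p under 0.05 (limma), and 18 had an unadjusted p under 0.05 (25.0%, against 15.6% of all probe sets). Of 19383 probe sets with a mean log2 signal of 6 or more, 5284 did so in a fit of their own. In 9 of the 18 genes, GADD45B, FAS, PERP, PIDD1, PPM1D, RPS27L, TP53I11, ZMAT3 and CMBL, no probe sets had opposite signs at 2 decimals. The widest spans were in CMBL and TNFRSF10B, from the lowest to the highest log2 fold change 1.38 each, followed by BTG1 with 1.18, GDF15 with 1.15 and PLK3 with 1.08. In BTG1, GDF15 and PLK3 the lower value was that of the brightest probe set. As means over all probe sets of a gene, GDF15 had a log2 fold change of -0.28, PLK3 -0.16, TP53INP1 -0.19, BTG1 -0.66 and PPM1D -0.60, while FAS had 0.57 and TNFRSF10B -0.55.

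**Figure D4:**
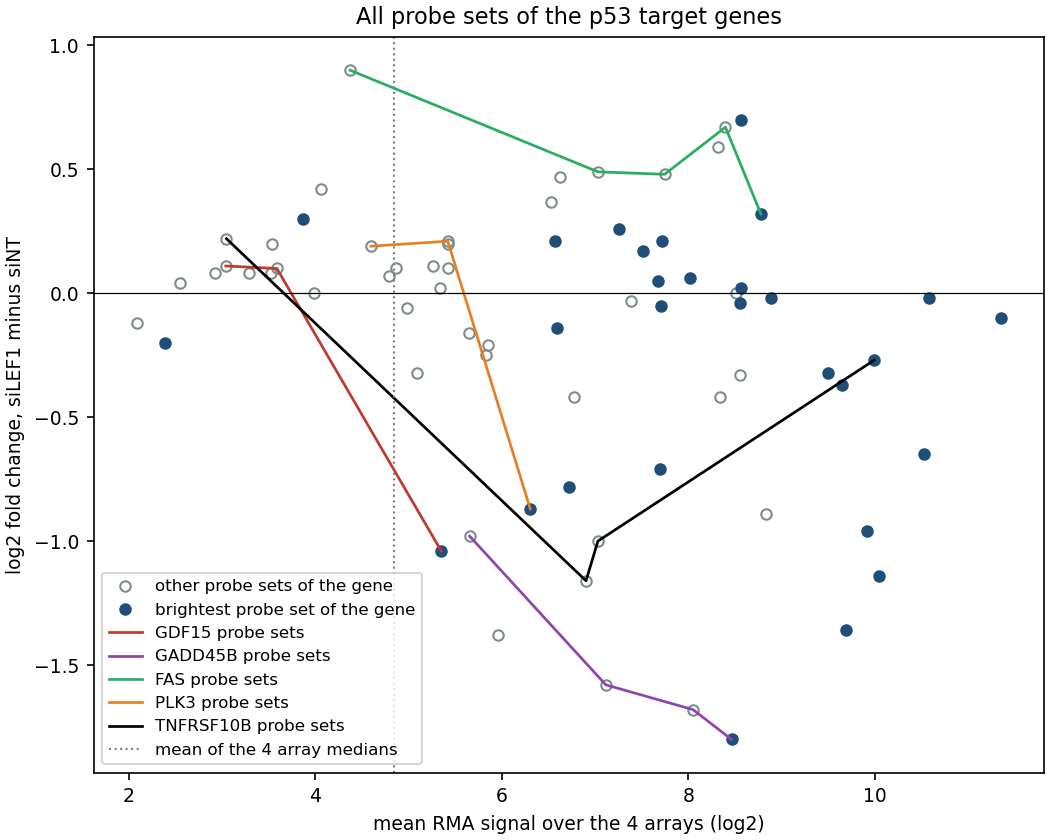
Log2 fold change of siLEF1 minus siNT (vertical axis) against mean RMA signal over the 4 arrays (horizontal axis) for the 72 probe sets of the 29 p53 target genes, with filled points for the brightest probe set of each gene and lines joining the probe sets of 5 genes. FAS stays above 0 and GADD45B below 0 in every probe set, while the dim probe sets of GDF15 and PLK3 lie slightly above 0 and their brightest at -1.04 and -0.87.

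Promoters are shown for members at the lower end and in the middle of the range, PLK3, PPM1D and GDF15 with log2 fold changes of -0.87 or below, and AEN and RPS27L near 0, to set their letters beside the values. RefSeq windows (GRCh38.p14) were at hand for 25 of the 31 listed genes, and the 250 bases before the start site are given 5′ to 3′. Capitals mark a match on either strand to 1 of 5 motifs, the p53 half-site consensus, the TCF/LEF core CTTTGA, the cAMP response element TGACGTCA, the AP-1 site TGANTCA and the C/EBP-ATF element TGATGNAA. None of these 5 windows holds more than 1 match, so none overlap. The genes printed were set by hand. GADD45B and BTG1, at -1.80 and -1.14, were lower than the genes shown, and their windows held none of the 5 motifs. GADD45A, at -1.36, had no window at hand. CCNG1, XPC and APAF1, also near 0, held no p53 half-site in their windows.
PLK3, chr1:44800127-44800376, plus strand: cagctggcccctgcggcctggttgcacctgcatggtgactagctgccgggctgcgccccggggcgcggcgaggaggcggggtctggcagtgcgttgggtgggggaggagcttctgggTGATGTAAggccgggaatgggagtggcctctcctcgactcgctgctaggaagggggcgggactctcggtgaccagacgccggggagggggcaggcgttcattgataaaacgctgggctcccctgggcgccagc
PPM1D, chr17:60599943-60600192, plus strand: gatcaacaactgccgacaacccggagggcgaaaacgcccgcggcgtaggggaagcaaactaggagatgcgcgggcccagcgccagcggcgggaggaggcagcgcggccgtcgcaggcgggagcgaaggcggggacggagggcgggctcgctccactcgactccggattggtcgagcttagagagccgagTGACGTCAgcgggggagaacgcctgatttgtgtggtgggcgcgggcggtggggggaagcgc
GDF15, chr19:18385908-18386157, plus strand: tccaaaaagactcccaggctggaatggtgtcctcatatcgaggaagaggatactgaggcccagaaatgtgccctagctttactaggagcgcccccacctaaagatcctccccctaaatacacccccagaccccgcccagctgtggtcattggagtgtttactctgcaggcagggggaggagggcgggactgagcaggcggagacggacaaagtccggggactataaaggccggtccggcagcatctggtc
AEN, chr15:88621090-88621339, plus strand: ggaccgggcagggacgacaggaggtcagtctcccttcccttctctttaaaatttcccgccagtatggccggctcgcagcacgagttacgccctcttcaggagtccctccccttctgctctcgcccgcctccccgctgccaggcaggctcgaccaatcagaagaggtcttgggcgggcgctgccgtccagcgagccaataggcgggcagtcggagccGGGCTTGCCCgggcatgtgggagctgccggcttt
RPS27L, chr15:63157478-63157727, minus strand: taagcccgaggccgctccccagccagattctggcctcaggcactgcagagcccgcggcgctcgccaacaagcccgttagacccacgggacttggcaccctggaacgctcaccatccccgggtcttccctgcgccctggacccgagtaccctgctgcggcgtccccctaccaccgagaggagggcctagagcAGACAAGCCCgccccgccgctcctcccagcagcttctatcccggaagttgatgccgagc

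The p53 half-site consensus was found in windows of 6 genes, AEN, RPS27L, SESN1, FAS, PLK2 and FDXR, and in 5.57% of all 35116 windows. Of these, FDXR was not analysed and the other 5 had log2 fold changes of 0.02, -0.10, 0.26, 0.32 and -0.20. The TCF/LEF core was found in FAS and ZMAT3 (11.2% of all windows) and the AP-1 site in FAS and PERP (6.57%). PPM1D had the cAMP response element (1.65%) and PLK3 the C/EBP-ATF element (3.14%), whereas the GDF15 window held none of the 5 motifs. The 25 genes had 35 windows, and a gene was counted if any of its windows held a match. The counts of genes and the shares of all windows are therefore unlike measures for each motif. A match describes letters in the window only, and binding was not measured.

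Of 56 other genes of the p53 pathway, 52 were measured, and 1 passed as lower and 0 as higher (against 0.183% and 0.0238% of all probe sets). The gene that passed was DHRS2, a dehydrogenase reported to bind MDM2. The study reports DHRS2 as its top decrease from its microarray comparison, so this call was known before the list was made. DHRS2 had signals of 5.74 and 5.47 with siLEF1 against 9.16 and 8.85 with siNT. Its log2 fold change was -3.40 (limma adjusted p = 0.0137), and it was -6.43 without _x_at and _s_at probe sets and -4.91 as a mean over both its probe sets (limma adjusted p = 0.002 and 0.000515). It did not pass without siLEF1 replicate 1, siLEF1 replicate 2 or siNT replicate 2 (limma adjusted p = 0.684, 0.498 and 0.0839). Among 16 listed regulators of p53, DHRS2 included, the median log2 fold change was 0.13. USP7, a deubiquitinase of MDM2 and p53, had 0.42 (limma adjusted p = 0.259). Among 36 further p53 targets the median was -0.07, with 9 lower (25.0%, against 11.5% of all genes) and 4 higher (11.1%, against 7.0%) at an unadjusted p under 0.05. The smallest p belonged to values of -1.0 for ANKRA2, an ankyrin repeat protein, -1.18 for THBS1, a matrix glycoprotein, and -0.99 for TRIM22, an antiviral ubiquitin ligase. Above 0 they belonged to SFN, a 14-3-3 protein that halts the cell cycle, at 0.81, PML, the nuclear body protein, at 0.68 and EI24, a membrane protein of autophagy, at 0.58. Their adjusted p ran from 0.0958 to 0.192 (limma), and ANKRA2 was at -1.23 without siNT replicate 1, against a lone control array. As means over all probe sets of a gene, THBS1 had -0.17 and PML 0.33, and without _x_at and _s_at probe sets they had -0.28 and 0.21. Outside the naming rule and chosen after their values were seen, the kinase inhibitor CDKN1A had -0.56, the apoptosis gene PMAIP1 -0.75, BAX -0.22 and MDM2 0.27, and none passed.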

How the data were processed

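The authors extracted the array signals in Affymetrix Expression Console (version 1.1 per the labels) and normalized them by RMA. The deposited table holds these log2 values for each probe set of 4 HG-U133 Plus 2.0 arrays, and which arrays entered the RMA run is not given in the sources used here. No scan date or slide was at hand, so batches could not be tested. The difference siLEF1 minus siNT was fitted with lmFit and eBayes of limma 3.58.1 under R 4.3.3 (2-sided test with 2 residual and 4.3 prior degrees of freedom) and adjusted by Benjamini-Hochberg over 54613 probe sets, after 62 control probe sets were left out. The study's thresholds were used for calls, fold changes over 2 with adjusted p under 0.05. The study's non-transfected group was not analysed here. In these data every probe set with an adjusted p under 0.05 also had a fold change over 2, but not the reverse. The script was tested on simulated data of 2 against 2 arrays in which few probe sets changed. At an adjusted p under 0.05 (limma) it recovered 1.8% of 2-fold and 86.8% of 4-fold changes. In that setting most 2-fold changes were missed.

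Symbols came from the platform annotation, updated by Entrez number, found for 41037 of 41091 probe sets with 1 symbol, while 1801 had several and 11721 none. The members and lists were chosen with earlier results of these data known, so lists were given as counts and medians without tests. The genes named are all members, LEF1, DHRS2 and, of the other pathway genes, up to 4 per direction with the smallest p. Shares of all genes refer to the brightest probe set of each symbol, dim genes included. The alternatives tried were 19383 probe sets whose mean log2 signal was at least 6, eBayes with trend and robust options, an unmoderated F test, the replicate number as a block, 2 other centrings, removal of _x_at and _s_at probe sets (39114 left), gene means, other fold thresholds and each array left out.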

Additional observations from a re-analysis of the deposited data

How the results depend on the processing

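Over the alternatives, 0 members passed as higher. Members passing as lower numbered 0 with a mean log2 signal of 6 or more (26 members left), with trend and robust options, with the F test without moderation, with arrays centred on their medians, without _x_at and _s_at probe sets (24 left), with gene means and with other fold thresholds. The number was 1 (GDF15) with housekeeping centring and ran from 0 to 4 when each array was left out. Each fit with an array left out has a lone array in 1 group, so its calls hold no spread of that group. The labels share replicate numbers without naming a shared batch, and same-numbered arrays deviated with a correlation of -0.155, so the numbers were not taken as pairs. With the replicate number as a block 2 members passed as lower, GADD45A and GDF15 (limma adjusted p = 0.0488 and 0.0373), THBS1 also passed (0.0241), and the calls over all probe sets were 977 lower and 120 higher. With the crossed block, chosen after seeing the data, 3 members and 763 lower and 159 higher probe sets passed.

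Against 100 lower and 13 higher probe sets, there were 4 and 1 with the filter, 130 and 20 with trend and robust options, 272 and 28 with housekeeping centring, 172 and 25 genes with gene means, and 0 and 0 with the F test (4393 at an unadjusted p under 0.05). Leaving out each array gave 0 to 1287 lower and 0 to 595 higher. Without siLEF1 replicate 1, siLEF1 replicate 2 or siNT replicate 2 limma called 0, with 3688, 4623 and 6232 at an unadjusted p under 0.05, and without siNT replicate 1 it called the most. DHRS2 lost its call with the F test (-3.40) and in those 3 fits, in all of which it stayed between -3.56 and -3.27.

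The median of the members, -0.10, was -0.18 with housekeeping centring, which moved every value by -0.07, and -0.18 to -0.04 when each array was left out. That centring turned AEN to -0.06, POLH to -0.02 and RRM2B to -0.01, and the removal of _x_at and _s_at probe sets, which left only dim probe sets of both genes, turned BTG1 to 0.04 and GDF15 to 0.10. Leaving out arrays turned values near 0: CCNG1 ran from -0.18 to 0.14, AEN from -0.11 to 0.14, APAF1 from -0.15 to 0.04, ZMAT3 from -0.28 to 0.24, RRM2B from -0.02 to 0.14 and CMBL from -0.65 to 0.02. In the other members the direction held in every fit that tested them. Signals under an array's median, as in PLK2, SPATA18 and the siLEF1 arrays of GDF15, can hide a change.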

Other observations

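Among the 36 other p53 targets measured, the siNT replicates were over 1 apart on the log2 scale in 3, which were picked out by that difference. SERTAD1, a transcriptional coregulator of the cell cycle, read 7.94 and 9.59 in siNT cells and 7.22 and 7.14 in siLEF1 cells. IER5, an immediate early gene, read 9.82 and 10.88 in siNT cells and 9.98 and 9.88 in siLEF1 cells, so that siNT replicate 1 was below both siLEF1 arrays. ACER2, a ceramidase, ran the other way, with 5.13 and 3.98 in siNT cells and 5.16 and 5.39 in siLEF1 cells.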
